A study of Sus scrofa with 64 samples.

Results

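The genes described here are the potassium, calcium, chloride and TRP ion channel genes that the porcine array could name. A probe set, called a probe below, was taken when its gene symbol in the platform annotation began with KCN, SCN and a digit, CACN, CLCN, or TRPC, TRPM or TRPV and a digit. The rule found 54 probes of 33 genes, among 23935 probes and 6765 genes with a symbol. Of these, 40 probes of 22 genes had symbols beginning with KCN, 5 probes of 5 genes with CACN, 5 probes of 3 genes with CLCN and 4 probes of 3 genes with TRP, and 0 probes matched a voltage-gated sodium channel gene. The count of genes is bounded by the annotation, since 13668 probes carried no symbol.

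The RNA came from 16 tissues of each of 4 pigs, 1 array per tissue and animal, so that n was 4 in every tissue. The animals were a Large White male of 38.8 kg and a Large White female of 36.2 kg, both 87 days old, and an Iberian male of 25.4 kg and an Iberian female of 32.8 kg, both 89 days old. They were kept at the same time on the same diets, no allele or experimental treatment is named for any of them, and all were killed with an overdose of sodium thiobarbital. Each breed by sex cell was thus a single animal, and breed cannot be told apart from the differences in weight and age that came with it. Tissues were taken whole or in part, the adrenal cortex and medulla were parted with a knife, stomach and ileum were sampled as epithelium, and the hypothalamus included the mammillary body.

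Voltage-gated potassium channels open when a cell depolarises and bring its membrane potential back, while inward rectifiers and calcium-activated potassium channels set the resting potential or answer to calcium. Small accessory subunits, the KCNE and KCNIP proteins among them, bind the pores and change their gating, and the alpha-2-delta and beta subunits carry calcium channel pores to the membrane. CLC proteins are chloride channels or, in endosomes, chloride/proton exchangers, and TRP channels are cation channels. In epithelia potassium channels recycle potassium for ion pumps and drive secretion, in endocrine glands they hold the membrane potential that controls hormone release, and in neurons they shape the action potential.

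By these roles the members were 12 probes of 6 voltage-gated potassium channel pores, 14 probes of 8 accessory potassium channel subunits, 5 probes of 3 calcium-activated potassium channels, 9 probes of 5 inward rectifiers, 5 probes of 5 accessory calcium channel subunits, 5 probes of 3 CLC genes, 2 probes of TRPM7, 1 of TRPV6 and 1 of TRPC4AP. The calcium channel genes held no pore-forming subunit, the inward rectifiers and KCNN3 and KCNN4 are not gated by voltage, and TRPC4AP encodes a protein associated with a TRP channel and not a channel. The label of voltage-gated and TRP ion channels therefore covers only part of the members, which are called channel genes below. Levels are log2 values, on which a difference of 1 unit is a 2-fold difference in signal. Of several probes of a gene the brightest is meant unless a number is given, and levels are compared only within a probe. When 4 values follow each other they are always those of the Large White male, the Large White female, the Iberian male and the Iberian female. All adjusted p are from limma with Benjamini-Hochberg adjustment over all 23935 probes, and a member was called at an FDR of 0.05. Shares of all probes were counted under the main settings only, so that counts of members under other settings stand without one.

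Tissue labels were checked on lists of marker genes. The mean level of hepatocyte markers was 13.03 in liver, that of skeletal muscle markers 12.24 in diaphragm and 12.65 in biceps femoris, and that of neuron markers 10.17 in olfactory bulb and 10.02 in hypothalamus. The adrenal medulla held as much of the adrenal cortex list as the cortex, 11.14 against 11.28, and the pituitary hormone list reached 8.70 in neurohypophysis against 12.07 in adenohypophysis. Single arrays also stood apart. Hepatocyte markers were at 7.80 in the abdominal fat of the Large White female, against 3.85 to 4.19 in the other 3, and at 6.36 in the neurohypophysis of the Iberian male, against 3.68 to 3.83. The Large White male pineal gland and the Iberian female stomach stood apart in genes described with those tissues, and results that rest on these arrays are given with and without them. As RNA of whole tissue was measured, fewer cells of a type and less RNA per cell cannot be told apart.

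Most channel probes had a signal below that of the median probe, while their tissue ranges were close to those of all probes. As probes differ in affinity, the first describes the signal of the probes and not the amount of RNA. Of the 54 members 11 had a mean over all arrays above that of the median probe, 5.54, and member means ran from 2.79 for the second KCNN3 probe to 8.35 for CLCN3, an endosomal exchanger. The range between the highest and the lowest tissue mean had a median of 1.71 over the members against 1.74 over all probes. It exceeded 2 in 22 members, or 40.7%, against 42.1% of all probes, and fell short of 1 in 3 members, or 5.56%, against 16.7%. All 54 members passed the test of any difference between tissues, as did 98.2% of all probes, so that this test did not set the members apart.

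The widest range belonged to KCNJ5, an inward rectifier of adrenal and cardiac cells, with 6.36. KCNB2, a delayed rectifier, followed with 5.52, CACNA2D1, the calcium channel subunit that gabapentin binds, with 5.47, and KCNIP4 and KCNIP2, calcium sensors that bind A-type potassium channels, with 5.45 and 5.06. Within the inward rectifiers the range fell to 0.88 for KCNJ2, the smallest of all members, followed by 0.96 for the fourth KCNQ1 probe. TRPC4AP had a range of 0.99 and a mean of 8.15. KCNJ2 had a mean of 3.13 and lay under the level of control probes described below in every tissue, whereas TRPC4AP lay over it in all 16.

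**Figure D1:**
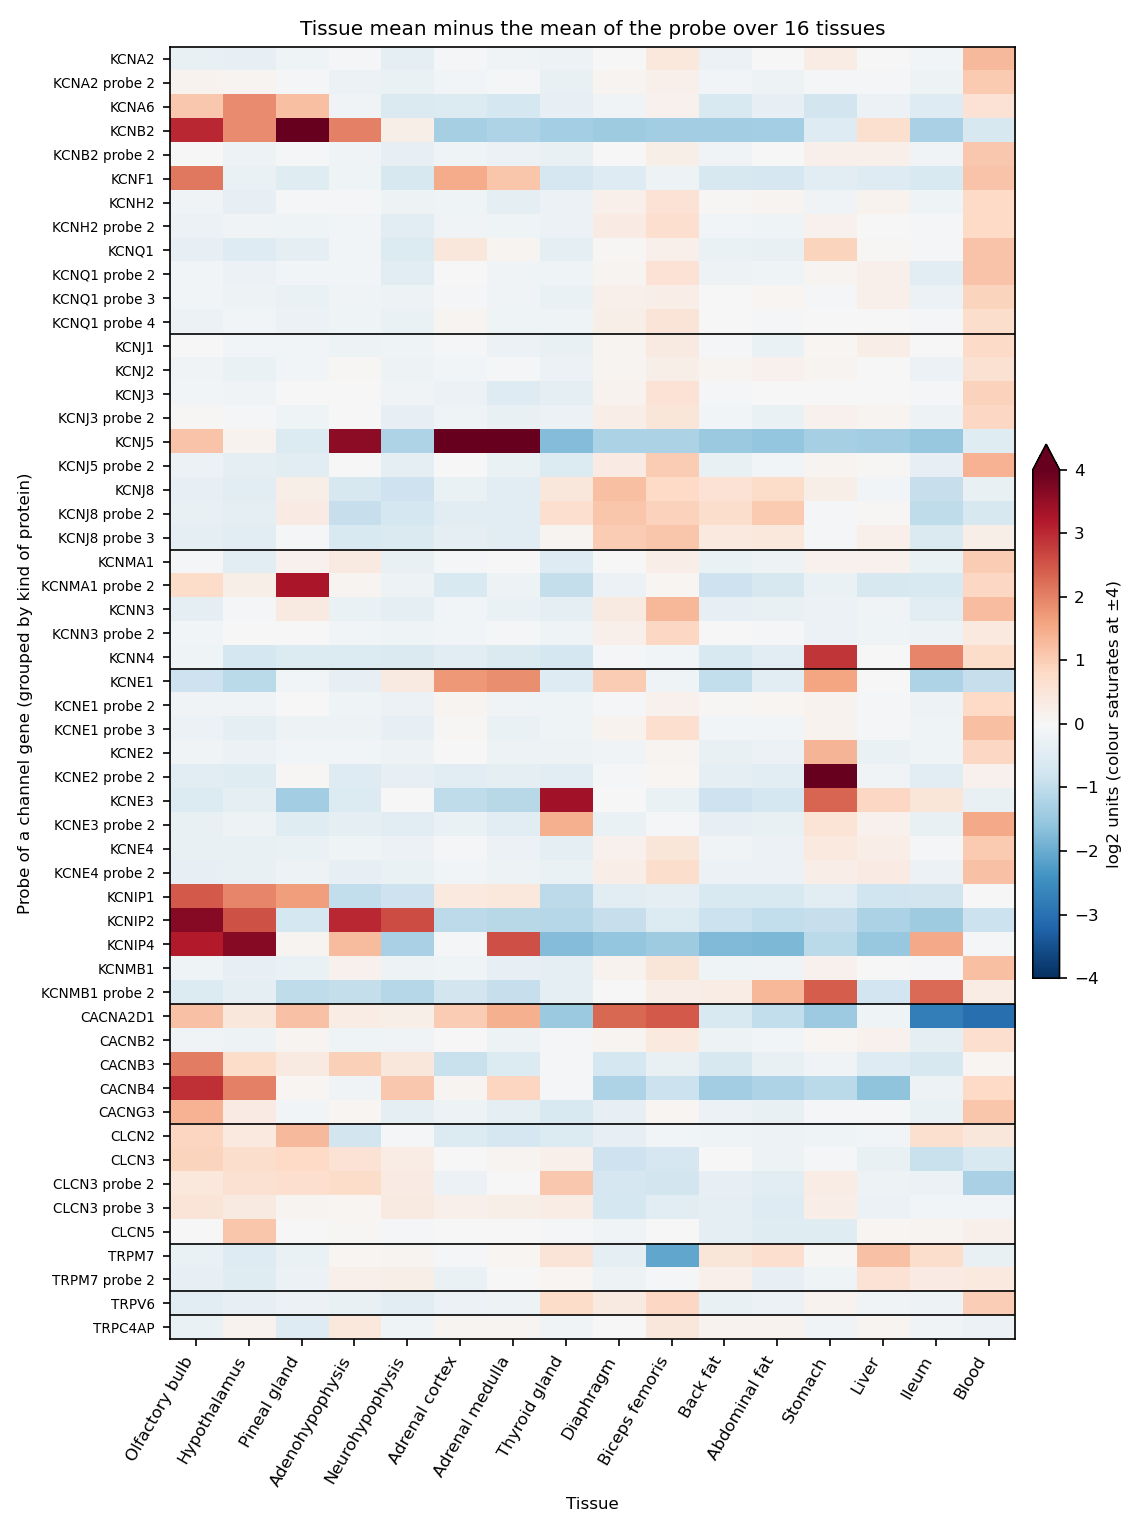
Mean of each tissue minus the mean of the probe over 16 tissues, in log2 units as colour, for the 54 channel probes (rows, grouped by kind of protein) in 16 tissues (columns, n = 4 animals each). The darkest cells, above 4, are KCNJ5 in adrenal cortex and adrenal medulla, the second KCNE2 probe in stomach and KCNB2 in the pineal gland, and the blood column is red over most rows.

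Blood was the top tissue of 23 members (42.6%, against 27.4% of all probes) and the olfactory bulb of 8 (14.8%, against 4.77%). The 5 brain tissues together, pituitary included, were the top tissue of 14 of the 54 members, against 22.86% of all probes, and the biceps femoris of 5 (9.26%, against 8.18%), the stomach of 4 (7.41%, against 3.51%), the hypothalamus of 3 (5.56%, against 5.32%) and the pineal gland of 3 (5.56%, against 5.20%). No test was run on these counts, which describe the members.

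In blood 34 of 54 members were called higher than in the other tissues and 8 lower, where 43.5% of all probes were called higher and 35.0% lower. By role, 11 of 12 voltage-gated potassium channel probes, 5 of 5 calcium-activated ones and 7 of 14 accessory potassium probes were called higher. KCNA2, an axonal potassium channel, read 5.27, 5.69, 5.17 and 4.79 in blood and was 1.39 above the other tissues (SE 0.11, adjusted p = 1.13e-16). KCNN3, a small-conductance calcium-activated channel, read 4.26, 4.76, 5.94 and 3.93 and was 1.31 above (SE 0.17, adjusted p = 9.1e-10). All 4 blood values of KCNA2 lay above the other 60 arrays, as was so for 8.43% of all probes in blood, while those of KCNN3 overlapped those of the biceps femoris. KCNMB1, a beta subunit of the large-conductance channel, read 7.56, 7.65, 7.38 and 7.50 and was 1.28 above (SE 0.09, adjusted p = 1.77e-18). KCNQ1, the cardiac and epithelial channel that KCNE proteins bind, and KCNF1, a silent modifier subunit, were each 1.20 above (SE 0.12 and 0.18, adjusted p = 3.45e-13 and 4.7e-08). The largest fall was that of CACNA2D1, which read 5.02, 4.43, 4.51 and 4.38 in blood and had a log2 difference of -3.23 from the other tissues (SE 0.27, adjusted p = 3.05e-15). KCNE1 and KCNIP2 had differences of -0.98 and -0.93 (SE 0.30 and 0.19, adjusted p = 0.00287 and 1.99e-05).

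Control probes moved in the same tissue. The array holds 64 probe sets for reporter genes that pigs do not have, and all 64 read higher in blood than in the other tissues, by a median of 0.50, and 62 read higher in biceps femoris, by 0.40. Of the 54 members 27 were dim, with a mean under 4.5, and these were 0.87 higher in blood by their median, against 0.53 for the 7740 dim probes of the array. Blood was the top tissue of 16 of the 27 dim members, and of 52.1% of all dim probes. The 95th percentile of the reporter probes was 5.96 in blood, and only 10 members exceeded it there, among them KCNMB1, KCNE4 and CACNG3, whereas KCNA2, KCNN3, KCNQ1 and KCNF1 stayed under it. Over all tissues 14 members, KCNA2 and KCNN3 among them, never exceeded the percentile of their tissue, 8 exceeded it in all 16 tissues and 32 in some, where 21.2% of all probes exceeded it in none and 35.9% in all. The part of the reporter shift in the blood and biceps results was not tested.

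**Figure D2:**
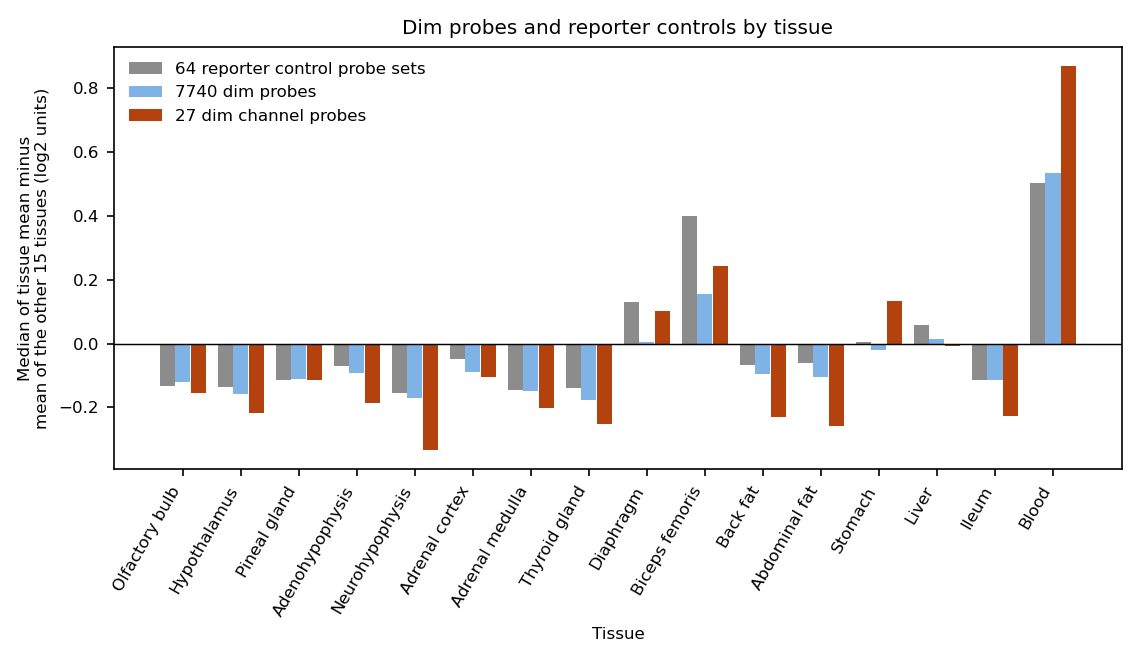
Median over probes of the tissue mean minus the mean of the other 15 tissues (log2 units, vertical axis) for 64 reporter control probe sets, 7740 dim probes and 27 dim channel probes in each of 16 tissues. All 3 sets rise in blood, to 0.50, 0.53 and 0.87, and in biceps femoris.

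**Figure D3:**
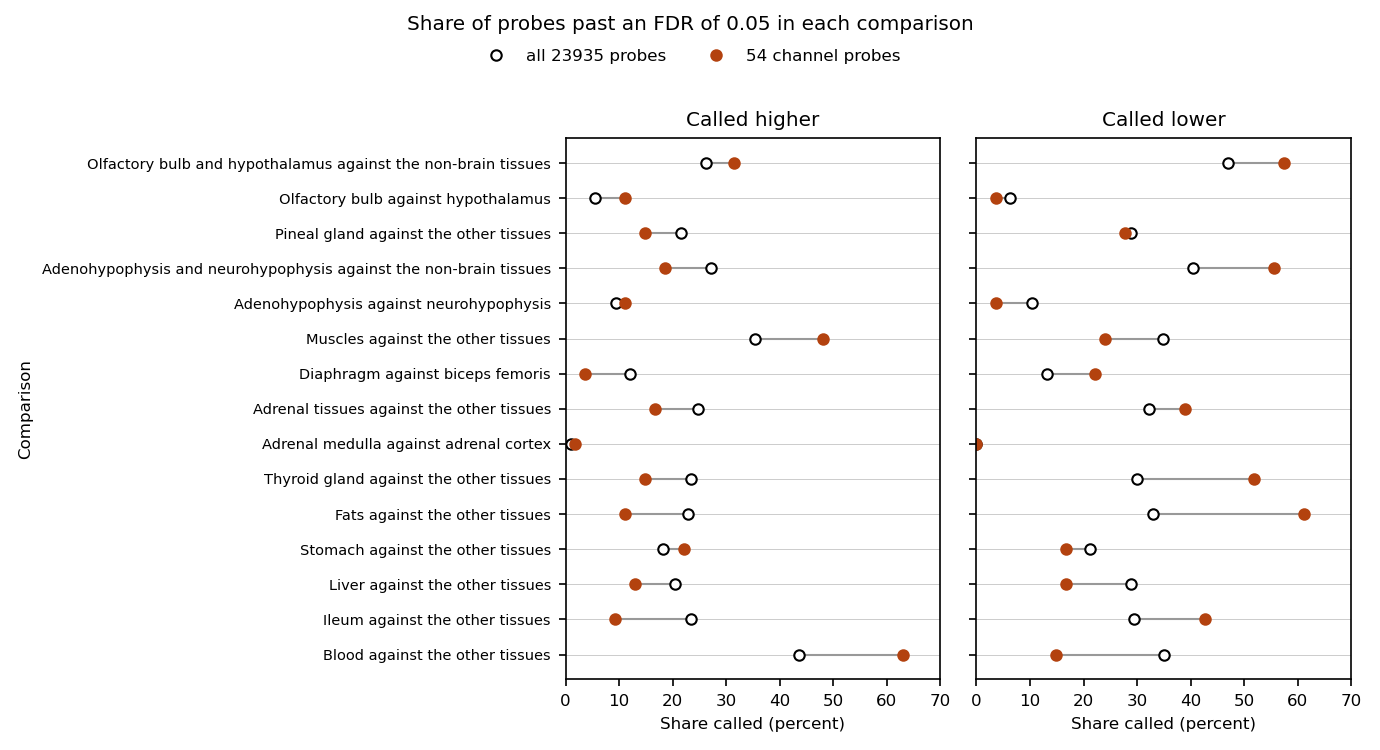
Share of probes called higher (left) and lower (right) at an FDR of 0.05, in percent, for all 23935 probes (open circles) and the 54 channel probes (filled circles) in each comparison between tissues. The channel probes lie far to the right of all probes for higher calls in blood and for lower calls in fat and thyroid gland.

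Olfactory bulb and hypothalamus were high in KCNIP subunits and in most accessory calcium channel subunits. In olfactory bulb and hypothalamus together, 17 members were called higher than in the 11 non-brain tissues and 31 lower, where 26.2% of all probes were called higher and 47.0% lower. The higher ones were all 5 CLC probes, 4 of 5 accessory calcium channel subunits, 3 of 12 voltage-gated potassium probes (KCNB2, KCNA6 and KCNF1), 3 of 14 accessory potassium probes (the KCNIP genes), KCNJ5 and the second KCNMA1 probe. KCNIP2 read 8.95, 8.65, 8.16 and 7.75 in olfactory bulb and 7.10, 7.86, 7.18 and 7.06 in hypothalamus, 4.10 above the non-brain tissues (SE 0.14, adjusted p = 3.1e-31). These 8 arrays and the 8 of the pituitary, all at 7.06 or more, lay above the other 48 arrays, of which the highest was 5.33. This set of tissues was put together after the levels were seen, and the share of all probes so separated was not counted. KCNIP4 read 8.64, 7.92, 8.60 and 8.69 in olfactory bulb and 8.80, 9.30, 9.03 and 8.61 in hypothalamus, 4.03 above (SE 0.28, adjusted p = 3.39e-18), and KCNIP1 was 2.58 above (SE 0.18, adjusted p = 8.89e-19).

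KCNB2 read 8.22, 8.36, 8.0 and 7.24 in olfactory bulb and 6.78, 7.12, 6.82 and 6.69 in hypothalamus, 3.48 above the non-brain tissues (SE 0.19, adjusted p = 5.26e-23). CACNB4, a calcium channel beta subunit of neurons, read 9.10, 9.23, 8.28 and 8.05 and then 7.92, 8.07, 7.46 and 7.57, 2.99 above (SE 0.19, adjusted p = 1.67e-19). In both genes the olfactory bulb was the higher of the pair in each animal, and none of the 8 arrays overlapped those of the non-brain tissues. The second KCNB2 probe did not share this pattern, was highest in blood and had a correlation of -0.06 to the brighter one over 64 arrays. CLCN3 was 1.10 above (SE 0.08, adjusted p = 2.67e-18), a smaller difference in the brightest member. Lower in both brain tissues were KCNE1, KCNE3 and KCNN4, with log2 differences of -1.15 (SE 0.22, adjusted p = 1.01e-05), -0.72 (SE 0.19, adjusted p = 0.000942) and -0.67 (SE 0.12, adjusted p = 1.95e-06). Of these, KCNN4 exceeded the reporter percentile in 2 tissues only, stomach and ileum. The other 28 lower members had differences between -0.85 and -0.17, and without the blood arrays 23 members were called lower.

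The olfactory bulb and the hypothalamus differed in single genes. Called higher in olfactory bulb were 6 members and lower 2, against 5.54% and 6.28% of all probes. KCNF1 read 7.01, 6.64, 6.45 and 5.65 in olfactory bulb and 4.17, 4.05, 4.20 and 3.78 in hypothalamus, a difference of 2.39 (SE 0.25, adjusted p = 1.3e-10). The groups did not overlap, and each Large White value was above each Iberian one in the olfactory bulb. That order by breed was picked out after the values were seen, and its share over all probes was not counted. CACNB3, a beta subunit, was 1.30 higher (SE 0.37, adjusted p = 0.0135), KCNB2 1.10 (SE 0.34, adjusted p = 0.0243), KCNIP2 1.08 (SE 0.26, adjusted p = 0.00258) and CACNG3, a gamma subunit that serves AMPA receptors, 1.06 (SE 0.21, adjusted p = 0.00017). On the natural logarithm of the values KCNB2 and KCNIP2 were not called (adjusted p = 0.105 and 0.14). CACNB3, KCNB2 and KCNA6 lost their call without the Large White female, and CACNB3 and KCNB2 also without the Iberian male.

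Higher in hypothalamus was CLCN5, a proton exchanger of endosomes, at 5.00, 5.49, 5.28 and 4.85 against 3.86, 3.64, 4.33 and 4.29 in olfactory bulb, a difference of -1.13 (SE 0.17, adjusted p = 1.11e-06). Its 4 hypothalamus values were above the other 60 arrays, as was so for 0.577% of all probes, although the gap to the next array was only 0.17. KCNA6, a delayed rectifier, read 7.07, 7.25, 7.18 and 7.37 in hypothalamus and 5.82, 5.96, 6.62 and 7.13 in olfactory bulb (difference -0.84, SE 0.19, adjusted p = 0.00152). The hypothalamus values of KCNA6 differed by 0.30 at most while those of the olfactory bulb rose from Large White to Iberian animals. This order too was picked out after the values were seen, its share over all probes was not counted, and 0 members were called by breed.

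The pineal gland, which makes melatonin, was high in the potassium channel genes KCNB2 and KCNMA1. Called higher there than in the other tissues were 8 members and lower 15, against 21.6% and 28.9% of all probes. The second probe of KCNMA1, the large-conductance calcium-activated channel, read 7.85, 7.03, 7.07 and 6.61 and was 3.47 above (SE 0.15, adjusted p = 1.3e-25). Its lowest pineal array was 1.69 above the highest of the other 60, and 0.284% of all probes stood above all other tissues in the pineal gland in this way. The brighter KCNMA1 probe read 6.04, 4.34, 4.78 and 4.54 there and did not show the pattern, and the correlation of both probes over 64 arrays was 0.37.

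KCNB2 read 6.99, 9.94, 9.57 and 9.69 in the pineal gland, 4.37 above the other tissues (SE 0.25, adjusted p = 4.86e-21). The second KCNB2 probe, with a range of 1.39 between tissue means, was highest in blood and exceeded the reporter percentile in 0 tissues. KCNIP1 was 1.79 above (SE 0.24, adjusted p = 6.92e-09), CLCN2, a chloride channel, 1.39 (SE 0.13, adjusted p = 5.37e-13), KCNA6 1.28 (SE 0.14, adjusted p = 4.29e-11) and CACNA2D1 1.24 (SE 0.27, adjusted p = 0.000151). The lowest differences were those of KCNE3, -1.50 (SE 0.26, adjusted p = 2.69e-06), KCNIP2, -0.74 (SE 0.19, adjusted p = 0.000967), and KCNJ5, -0.58 (SE 0.18, adjusted p = 0.00661), and the KCNJ5 call was lost without either female and on the natural logarithm (adjusted p = 0.21).

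The Large White male pineal array stood apart in these genes. It read 9.29 for KCNIP4 where the other 3 read 4.24 or less, 9.47 for CACNB3 against 5.29 to 5.48 and 8.12 for CACNB4 against 4.81 to 5.29, and it was the lowest of the 4 for KCNB2, CACNA2D1 and CLCN2. In the same array the photoreceptor and pineal genes SAG and NEUROD1 were at 5.09 and 6.10, against 8.08 to 10.36 and 9.22 to 9.27, and the mean of the neuron markers was 9.31 against 7.80 to 7.84. Of 12 neuron markers 9 were highest in that array, such as GAD1, an enzyme of inhibitory neurons, at 6.88 against 2.93 to 3.52, and SNAP25, STMN2 and VSNL1 were lowest there, at 11.71, 11.17 and 10.08. The mean of the astrocyte and myelin markers was also higher there, at 8.38 against 6.41 to 6.55. The part of the neuron and glial content in the channel values was not tested. With that array, KCNIP4, CACNB3 and CACNB4 had pineal differences of 0.11, 0.40 and 0.07, none of them called (adjusted p = 0.832, 0.226 and 0.846). Without it the differences were -1.12, -0.59 and -0.70, all called lower (adjusted p = 0.000472, 0.000557 and 0.00514). KCNB2 rose to 5.08, CACNA2D1 to 1.95 and CLCN2 to 1.67 without it, and KCNIP1 fell to 1.22, all still called. Without it KCNB2 and CLCN2 also joined KCNMA1 as members whose pineal arrays were all above the other tissues.

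In the pituitary, adenohypophysis and neurohypophysis together, 10 members were called higher than in the non-brain tissues and 30 lower, against 27.2% and 40.4% of all probes. KCNIP2 read 8.08, 7.57, 7.49 and 7.89 in adenohypophysis and 7.81, 7.11, 7.42 and 7.12 in neurohypophysis, 3.82 above (SE 0.14, adjusted p = 2.05e-29). KCNB2 was 2.16 above (SE 0.19, adjusted p = 9.69e-15), KCNJ5 1.45 (SE 0.14, adjusted p = 1.97e-13), CACNB3 1.13 (SE 0.20, adjusted p = 3.37e-06) and CACNB4 1.0 (SE 0.19, adjusted p = 1.48e-05). Lower were KCNJ8, a pore of ATP-sensitive channels in vessels, at -0.91 (SE 0.12, adjusted p = 1.55e-09), KCNN4 at -0.80 (SE 0.12, adjusted p = 4.84e-08) and the calcium channel TRPV6 at -0.52 (SE 0.07, adjusted p = 1.13e-09). By role, 10 of 12 voltage-gated potassium probes and 8 of 14 accessory potassium probes were lower, with family median differences of -0.30 and -0.35. Of the voltage-gated ones, both KCNA2 probes and the dimmer probes of KCNB2 and KCNH2 exceeded the reporter percentile in 0 tissues. The same was so for all KCNQ1 probes but the brightest. The reporter median difference was 0.50 in blood and 0.40 in biceps femoris, both non-brain tissues. In adenohypophysis and neurohypophysis it was -0.07 and -0.15. The part of this shift in the counts by role was not tested.

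Both lobes shared KCNIP2 but not KCNJ5. Between adenohypophysis and neurohypophysis 6 members were called higher and 2 lower, against 9.46% and 10.3% of all probes. KCNJ5 read 8.69, 8.53, 9.19 and 8.53 in adenohypophysis and 3.92, 3.62, 4.12 and 4.07 in neurohypophysis, a difference of 4.80 (SE 0.25, adjusted p = 9.51e-22). KCNIP4 differed by 2.59 (SE 0.52, adjusted p = 0.000133) and KCNB2 by 1.79 (SE 0.34, adjusted p = 6.01e-05), and in neither did the lobes overlap. KCNMA1 was 0.67 higher (SE 0.20, adjusted p = 0.0108) and TRPC4AP 0.58 (SE 0.16, adjusted p = 0.0061). CACNB4 and CLCN2 were higher in neurohypophysis, with differences of -1.22 (SE 0.36, adjusted p = 0.00989) and -0.65 (SE 0.18, adjusted p = 0.00614). The calls of KCNMA1 and CLCN2 were lost without either Iberian animal and that of CACNB4 without the Iberian male or the Large White female, and on the natural logarithm of the values 10 members were called higher in place of 6. Without the Iberian male neurohypophysis array the counts were 6 and 2.

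The adrenal gland was marked by KCNJ5, whose channel holds the resting potential of aldosterone-producing cells. It read 9.71, 10.08, 9.32 and 10.03 in cortex and 9.33, 10.21, 8.57 and 9.96 in medulla, 5.12 above the other tissues (SE 0.13, adjusted p = 2.51e-36). The 12 arrays of both adrenal parts and the adenohypophysis, at 8.53 to 10.21, lay above the other 52, of which an olfactory bulb array was the highest at 6.81. These tissues were put together after the levels were seen, and the share of all probes so separated was not counted. The other 52 arrays had a median of 3.89, and KCNJ5 exceeded the reporter percentile in 6 tissues. Where KCNJ5 was lower in a tissue than in the other tissues, the latter included the adrenal gland and the adenohypophysis. The second KCNJ5 probe had an adrenal difference of -0.15 (SE 0.07, adjusted p = 0.0714), and the correlation of both probes over 64 arrays was -0.07. In all 9 members were called higher in the adrenal tissues and 21 lower, against 24.7% and 32.2% of all probes.

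KCNE1, a partner of KCNQ1, read 5.46, 6.64, 7.13 and 7.09 in cortex and 5.45, 6.54, 7.34 and 7.50 in medulla, 2.06 above (SE 0.22, adjusted p = 1.06e-11). The Large White male was lowest in both parts. The other KCNE1 probes had differences of -0.01 and -0.13 (adjusted p = 0.867 and 0.193), with correlations of 0.05 and 0.03 to the brightest one. KCNF1 was 1.49 above (SE 0.13, adjusted p = 3.98e-14), KCNIP4 1.44 (SE 0.28, adjusted p = 1.78e-05) and CACNA2D1 1.40 (SE 0.20, adjusted p = 4.41e-08). KCNB2, KCNIP2 and KCNE3 were lower, with differences of -1.47, -1.23 and -1.21 (SE 0.18, 0.14 and 0.19, adjusted p = 1.16e-09, 8.12e-11 and 2.76e-07).

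Between cortex and medulla few channel genes had a difference that could be called. KCNIP4 alone was called higher in medulla and 0 members lower, where 0.999% and 0.00418% of all probes were called, and 2 members were higher and 3 lower at an unadjusted p under 0.05. KCNIP4 read 8.34, 6.91, 8.87 and 7.31 in medulla and 4.98, 6.30, 4.89 and 4.76 in cortex, a difference of 2.63 (SE 0.52, adjusted p = 0.00144). The parts did not overlap, and the Large White female had both the lowest medulla and the highest cortex value. The mean of the chromaffin cell markers was 11.06, 10.42, 10.98 and 10.06 in medulla and 9.41, 9.94, 8.82 and 7.71 in cortex, also with both males above both females in medulla and the Large White female the highest in cortex. Its part in the KCNIP4 difference was not tested, and without the Iberian male the difference was 2.17 and not called (adjusted p = 0.309).

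**Figure D4:**
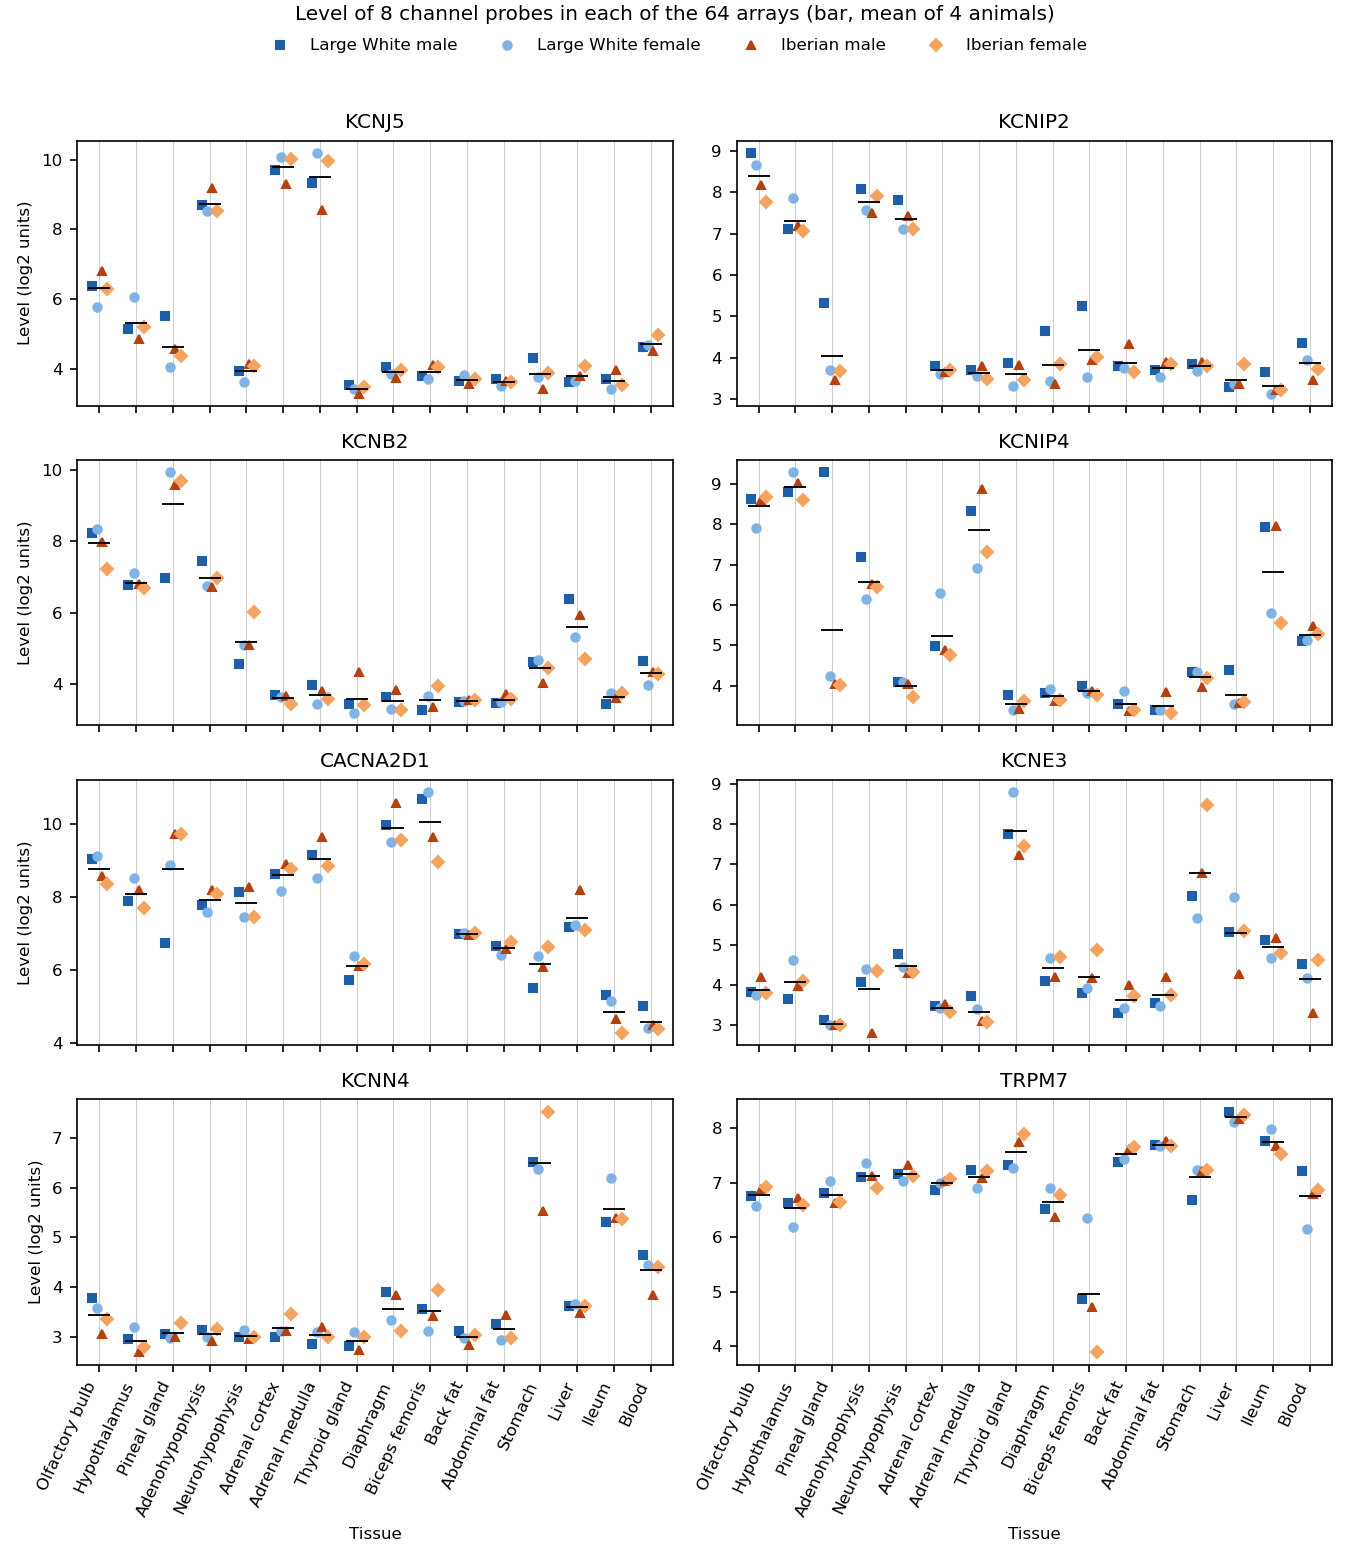
Level (log2 units, vertical axis) of 8 channel probes in each of the 64 arrays, by tissue (horizontal axis) and animal (symbol), with a bar at the mean of 4 animals. KCNJ5 stands high in both adrenal parts and the adenohypophysis, KCNE3 in thyroid gland and stomach, KCNN4 in stomach and ileum, and TRPM7 stands low in biceps femoris. KCNIP4 in the pineal gland is high in the Large White male array only.

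Skeletal muscle was marked by CACNA2D1, the alpha-2-delta subunit of its calcium channel. It read 9.97, 9.51, 10.58 and 9.57 in diaphragm and 10.70, 10.89, 9.66 and 8.96 in biceps femoris, 2.70 above the other tissues (SE 0.20, adjusted p = 3.16e-17). Pineal, adrenal medulla and olfactory bulb arrays, at up to 9.74, 9.64 and 9.14, overlapped the lower muscle values. In all 26 members were called higher in the muscles and 13 lower, against 35.4% and 34.9% of all probes, with 8 of 9 inward rectifier probes and 7 of 12 voltage-gated potassium probes higher. Of the 64 reporter probe sets 57 also read higher in diaphragm, by a median of 0.13, and 62 in biceps femoris, by 0.40. Within these families KCNJ1, KCNJ2, both KCNA2 probes and the dimmer probes of KCNJ3, KCNB2 and KCNH2 exceeded the reporter percentile in 0 tissues. The same was so for all KCNQ1 probes but the brightest. The part of the reporter shift in these counts was not tested.

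KCNJ8 read 6.43, 7.07, 6.19 and 6.42 in diaphragm and 6.34, 5.69, 5.90 and 6.58 in biceps femoris, 1.15 above the other tissues (SE 0.11, adjusted p = 6.71e-13). These values overlapped those of the fats, and its other 2 probes gave 1.16 and 1.21. The endothelium marker list was at 7.85 in diaphragm and 7.56 in biceps femoris and at 8.13 and 8.14 in abdominal and back fat and 7.25 in thyroid gland, where KCNJ8 was also called higher, and its part in the KCNJ8 levels was not tested. KCNN3 was 0.96 above (SE 0.12, adjusted p = 1.04e-09), TRPV6 0.68 (SE 0.06, adjusted p = 1.84e-13) and KCNE1 0.49 (SE 0.22, adjusted p = 0.043), the last lost without the Iberian female, without the Large White female or without the blood arrays. KCNIP4, KCNB2 and KCNJ5 were lower, with differences of -1.70, -1.60 and -1.45 (SE 0.28, 0.18 and 0.13, adjusted p = 4.65e-07, 5.54e-11 and 6.25e-14).

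TRPM7, a magnesium-permeable channel with a kinase domain, was low in biceps femoris. It read 6.52, 6.90, 6.38 and 6.78 in diaphragm and 4.88, 6.36, 4.73 and 3.89 in biceps femoris, a difference of 1.68 (SE 0.23, adjusted p = 4.32e-07). The 4 biceps values lay under those of the diaphragm, and 3 of them under those of all other tissues, where the lowest was 6.15. The second TRPM7 probe differed by -0.17 (SE 0.24, adjusted p = 0.656), with a correlation of 0.31 to the first. KCNE1 was 1.18 higher in diaphragm (SE 0.41, adjusted p = 0.0281) and was called in neither muscle comparison without the Large White female or without the Iberian female.

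Against 12.1% and 13.1% of all probes, 2 members were called higher in diaphragm and 12 lower. KCNN3 was higher in biceps femoris (difference -0.99, SE 0.23, adjusted p = 0.00117), as were TRPC4AP (-0.48, SE 0.16, adjusted p = 0.0213) and TRPV6 (-0.47, SE 0.12, adjusted p = 0.00336). Without the Iberian female biceps array 4 members were called lower in diaphragm in place of 12, KCNN3 among them, and TRPC4AP and TRPV6 were lost. That array read 9.39 for TRPC4AP where the other 3 biceps arrays read 8.17 to 8.49.

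KCNE subunits and KCNN4 were high in stomach. In all 12 members were called higher there and 9 lower, against 18.2% and 21.3% of all probes, and 8 of the 14 accessory potassium probes were higher. KCNN4, an intermediate-conductance calcium-activated channel of epithelia and blood cells, read 6.51, 6.38, 5.53 and 7.52, 3.06 above the other tissues (SE 0.16, adjusted p = 1.04e-22). KCNE3 read 6.21, 5.67, 6.79 and 8.48, 2.50 above (SE 0.26, adjusted p = 1.29e-11). In both genes the Iberian female was the highest of the 4.

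KCNE2 and KCNQ1, which form the potassium channel that serves the proton pump of parietal cells, went the other way in that animal. The second KCNE2 probe read 9.09, 8.68, 9.22 and 2.98 in stomach, where the other 60 arrays reached 3.84 at most, a difference of 4.42 (SE 0.39, adjusted p = 6.39e-14). The other 3 stomachs thus stood far above every other tissue, and that of the Iberian female was within the range of those tissues. The brighter KCNE2 probe read 5.26, 4.33, 5.72 and 4.29 (difference 1.44, SE 0.14, adjusted p = 2.02e-12), KCNQ1 5.43, 5.48, 5.49 and 4.43 (0.96, SE 0.12, adjusted p = 1.9e-09) and KCNE1 6.84, 6.94, 7.17 and 4.75 (1.69, SE 0.30, adjusted p = 5.58e-06). The Iberian female was the lowest in all of them, but for the brighter KCNE2 probe the Large White female was close, at 4.33 against 4.29. The other KCNE1 probes had correlations of 0.05 and 0.03 to the brightest one over 64 arrays.

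The subunits of the gastric proton pump moved with these genes. ATP4A read 12.74, 12.61, 12.81 and 7.51 and ATP4B 13.12, 13.22, 13.02 and 8.93, both lowest in the Iberian female by far. Of the other 6 gastric markers with a probe PGA5, TFF1, GKN1 and GHRL stayed within 1 unit over the 4 stomachs, with TFF1 at 13.84, 13.14, 13.69 and 13.88. TFF2 read 11.82, 11.48, 11.65 and 12.72 and GIF 10.97, 10.23, 5.89 and 11.84, both highest in the Iberian female. The part of the parietal cell content of the samples in the channel levels was not tested. Without the Iberian female stomach array the differences were 5.93 for the second KCNE2 probe, 2.35 for KCNE1, 1.65 for KCNE2, 1.23 for KCNQ1, 1.95 for KCNE3 and 2.70 for KCNN4, all still called. Without the blood arrays 18 members were called higher in stomach and 8 lower.

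**Figure D5:**
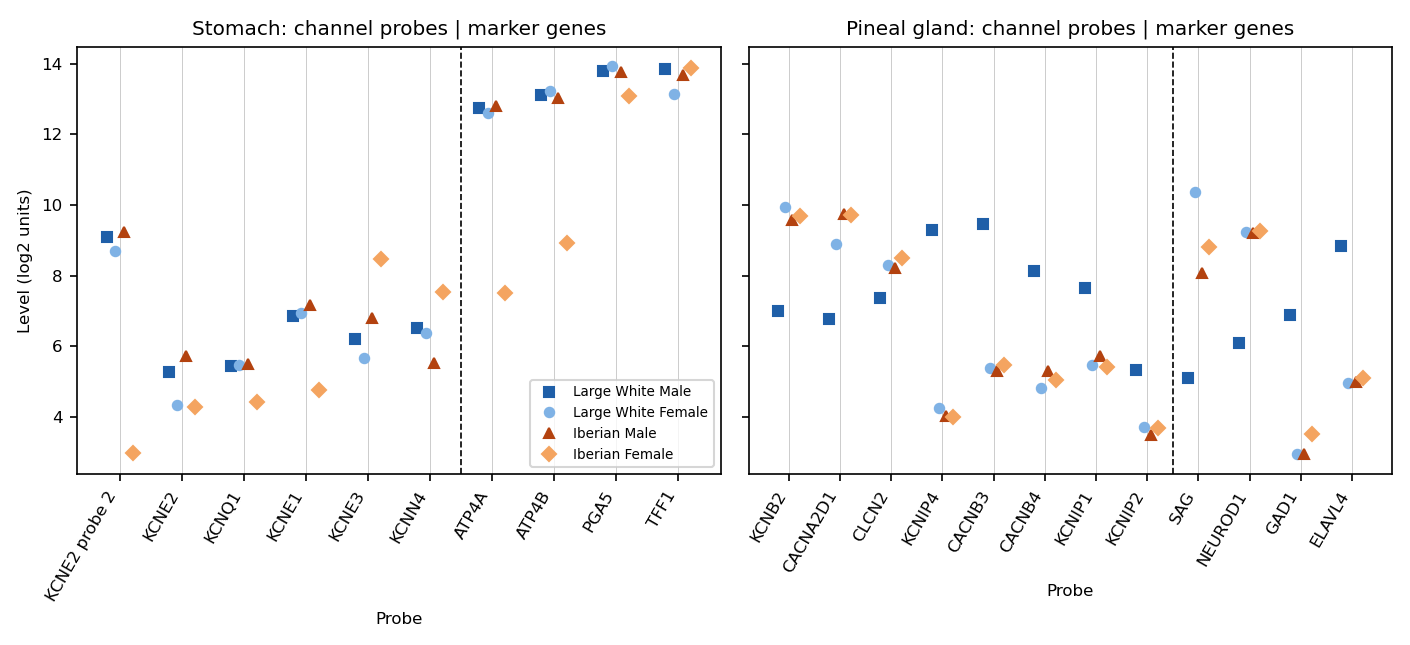
Level (log2 units, vertical axis) of channel probes and, to the right of each dashed line, of marker genes in the 4 stomach arrays (left) and the 4 pineal arrays (right), by animal (symbol). The Iberian female stomach is low for the second KCNE2 probe, KCNQ1, KCNE1, ATP4A and ATP4B, and the Large White male pineal gland is high for KCNIP4, CACNB3, CACNB4 and GAD1 and low for KCNB2, SAG and NEUROD1.

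The second probe of KCNMB1, a subunit known from smooth muscle, read 6.31, 9.63, 6.04 and 7.96 in stomach (difference 2.58, SE 0.31, adjusted p = 1.26e-09) and 8.22, 7.07, 7.46 and 6.59 in ileum (2.42, SE 0.31, adjusted p = 3.48e-09). The means of the smooth muscle marker list were 8.12, 9.87, 7.84 and 8.72 in stomach and 8.98, 8.23, 8.74 and 8.14 in ileum, and in both tissues they had the order of the KCNMB1 values over the animals. Its part was not tested. The brighter KCNMB1 probe, highest in blood, had a correlation of 0.26 to this one. Lower in stomach were CACNA2D1, KCNJ5 and CACNB4, with differences of -1.54, -1.42 and -1.17 (SE 0.27, 0.18 and 0.26, adjusted p = 6.91e-06, 5.88e-09 and 0.000257).

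The ileum shared KCNN4 with the stomach. KCNN4 read 5.30, 6.19, 5.38 and 5.38, 2.07 above the other tissues (SE 0.16, adjusted p = 1.91e-16). The 8 arrays of stomach and ileum, at 5.30 or more, lay above the other 56, of which a blood array was the highest at 4.65. Both tissues were put together after the levels were seen, and the share of all probes so separated was not counted. Leukocyte markers were at 7.08 in ileum and 7.59 in blood but at 4.91 in stomach, and their part in the KCNN4 levels was not tested. In all 5 members were called higher in ileum and 23 lower, against 23.4% and 29.5% of all probes.

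KCNIP4 in ileum read 7.93 and 5.81 in the Large White male and female and 7.95 and 5.56 in the Iberian male and female, 1.62 above the other tissues (SE 0.38, adjusted p = 0.000303). Both males lay over both females by more than 2 units. Neuron markers in the same samples were at 4.52, 4.21, 4.45 and 4.31, in the order of the animals used throughout, and their part was not tested. With 2 males and 2 females no exact permutation test can go below a two-sided p of 0.333. TRPM7 was 0.74 higher in ileum (SE 0.17, adjusted p = 0.000205) and CLCN2, which carries chloride in gut epithelium, 0.69 (SE 0.13, adjusted p = 1.4e-05). CACNA2D1 read 5.32, 5.15, 4.66 and 4.29 and differed by -2.94 (SE 0.27, adjusted p = 2.41e-13), KCNJ5 by -1.61 and KCNIP2 by -1.53 (SE 0.18 and 0.19, adjusted p = 8.74e-11 and 1.16e-09).

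In the thyroid gland KCNE3 read 7.77, 8.80, 7.24 and 7.47, 3.60 above the other tissues (SE 0.26, adjusted p = 4.73e-17). KCNE3 makes KCNQ1 channels stay open in epithelia, while KCNQ1 itself read 3.84, 3.94, 3.92 and 4.10 in thyroid gland, under the reporter percentile of 4.39 there. The second KCNE3 probe read 5.77, 6.91, 4.99 and 5.02 (difference 1.53, SE 0.18, adjusted p = 5.52e-10), with the Large White female again the highest. The 8 arrays of thyroid gland and stomach ran from 5.67 to 8.80 for KCNE3 and the other 56 up to 6.20 in liver, so that only the lowest stomach array fell within their range.

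In all 8 members were called higher in thyroid gland and 28 lower, against 23.5% and 30.0% of all probes. After a further quantile normalization 18 were called lower. TRPV6 was 0.78 higher (SE 0.09, adjusted p = 1.33e-10), TRPM7 0.56 (SE 0.17, adjusted p = 0.00516) and KCNJ8 0.49 (SE 0.16, adjusted p = 0.0068). The TRPM7 call was lost without either Iberian animal and that of KCNJ8 without the Large White male. KCNJ5 and KCNIP4 each differed by -1.86 (SE 0.18 and 0.38, adjusted p = 2.11e-12 and 5.64e-05) and CACNA2D1 by -1.60 (SE 0.27, adjusted p = 2.87e-06).

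In liver TRPM7 was high, at 8.31, 8.12, 8.18 and 8.25, 1.25 above the other tissues (SE 0.17, adjusted p = 1.07e-08). These 4 arrays were above the other 60, with a gap of 0.14 to an ileum array, as was so for 2.88% of all probes in liver. The second TRPM7 probe was 0.63 higher (SE 0.18, adjusted p = 0.00275). KCNE3 read 5.33, 6.20, 4.28 and 5.34, 0.90 above (SE 0.26, adjusted p = 0.00301), KCNB2 6.40, 5.33, 5.95 and 4.72, 0.69 above (SE 0.25, adjusted p = 0.018), and KCNE4 was 0.29 above (SE 0.10, adjusted p = 0.0112). Each of these 3 calls was lost without 1 animal, that of KCNE3 without the Large White female, that of KCNB2 without either male and that of KCNE4 without the Iberian female. CACNB4, KCNIP4 and KCNJ5 were lower, with -1.73, -1.62 and -1.48 (SE 0.26, 0.38 and 0.18, adjusted p = 1.49e-07, 0.000318 and 8.3e-10). In all 7 members were called higher and 9 lower, against 20.5% and 28.8% of all probes, and without the blood arrays 11 were called higher.

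The fats, back and abdominal, had 6 members called higher and 33 lower, against 22.8% and 33.0% of all probes, 23 lower without the blood arrays and 26 lower without the Large White female abdominal fat array. KCNJ8 read 5.71, 6.34, 5.87 and 5.71 in back fat and 6.35, 6.11, 5.87 and 5.87 in abdominal fat, 0.75 above the other tissues (SE 0.11, adjusted p = 1.28e-07). TRPM7 was 0.65 above (SE 0.12, adjusted p = 1.27e-05). KCNJ2, with a difference of 0.17 (SE 0.07, adjusted p = 0.0439), lost its call without the Large White male or either Iberian animal, and also without the Iberian male neurohypophysis array alone. KCNIP4, KCNJ5 and KCNB2 were lower, with -2.03, -1.74 and -1.59 (SE 0.28, 0.13 and 0.18, adjusted p = 1.29e-08, 1.88e-16 and 1.19e-10), and all 5 calcium channel subunits were called lower. For KCNJ5 the other tissues included the adrenal gland and the adenohypophysis, where it was high.

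Members whose 4 arrays in a tissue all lay beyond the other 60 numbered 9. Beside the second KCNMA1 probe in pineal gland, CLCN5 in hypothalamus and TRPM7 in liver, they were KCNE4, KCNMB1, 2 probes of KCNA2 and 2 of KCNQ1 in blood, a tissue with many such probes. Only the KCNMA1 probe had a gap over 0.5.

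Genes outside the rule were counted from lists. Of 73 other channel genes, HCN, CLIC, P2RX and RYR genes among them, 23 had a probe. In olfactory bulb and hypothalamus 4 of these were higher and 14 lower (all probes 26.2% and 47.0%), with a median difference of -0.30, where the median was -0.25 for the 54 members and -0.15 for all probes. In the muscles 11 were higher and 7 lower (all probes 35.4% and 34.9%), in stomach 8 and 4 (18.2% and 21.3%), and in blood 12 and 8 (43.5% and 35.0%). Of 39 genes whose proteins bind or anchor channels 10 had a probe, and in olfactory bulb and hypothalamus 9 were higher and 0 lower, with a median of 1.76. In liver 8 of the 10 were lower, against 28.8% of all probes, and in the fats 8, against 33.0%.

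Breeds and sexes were compared on the means of the 4 animals over 16 tissues, and 0 members were called in either. Of all probes 0.0418% were higher and 0.0501% lower in Large White than in Iberian pigs, and 0.0376% higher and 0.0251% lower in males than in females. At an unadjusted p under 0.05 limma gave 3 members higher and 3 lower by breed and 1 and 1 by sex. The smallest p belonged to KCNE1 and KCNA6 for breed, with Large White minus Iberian differences of -0.38 (SE 0.08, adjusted p = 0.252) and -0.23 (SE 0.07, adjusted p = 0.311), and to KCNIP4 and KCNE3 for sex, with male minus female differences of 0.46 (SE 0.09) and -0.22 (SE 0.08), both at an adjusted p of 1. If the 64 arrays were taken as replicates KCNA6 would pass for breed (adjusted p = 0.0166), but arrays of an animal are not independent.

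The contrasts of the muscles and of olfactory bulb with hypothalamus were also compared between breeds. For the muscles against the other tissues 1 member was called, against 1.64% of all probes, and 8 had an unadjusted p under 0.05. That member was TRPM7, whose contrast was 0.81 higher in Large White pigs (SE 0.22, adjusted p = 0.0449). The second TRPM7 probe gave 0.07 (SE 0.24, adjusted p = 0.917). The biceps values of the first probe, 4.88 and 6.36 in Large White and 4.73 and 3.89 in Iberian pigs, did not overlap, but the males differed by less than the 2 animals of a breed. The call held without the Large White male (1.31, adjusted p = 0.00179) but not without the Large White female (0.31, adjusted p = 0.578), the Iberian female (0.71, adjusted p = 0.488), the Iberian male (0.91, adjusted p = 0.0621) or the Iberian female biceps array alone (0.59, adjusted p = 0.298). For olfactory bulb and hypothalamus 0 members were called by limma, against 0.330% of all probes, and 4 had an unadjusted p under 0.05.

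In the adrenal gland some members were ordered by breed. KCNIP1 read 3.91 and 4.37 in the cortex of Large White and 5.32 and 5.56 in that of Iberian pigs, and 3.78 and 4.18 against 5.13 and 6.22 in the medulla. KCNF1 ran the other way, with 6.25 and 6.41 against 5.33 and 5.22 in cortex and 5.56 and 6.57 against 5.03 and 4.60 in medulla. In neither gene did the breeds overlap, but the share of all probes for which this was so was not counted. With 2 animals against 2 no exact permutation test can go below a two-sided p of 0.333. Cortex and medulla came from the same animals, so that the second part is no separate support. These members were picked after their values were seen, so that no test is given.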

How the data were processed

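Total RNA of 16 tissues of 4 pigs was hybridised to 64 Affymetrix porcine arrays. The authors took array signals from GCOS, checked array quality and summarised and normalised all arrays together by RMA in libaffy, and the deposited values are log2 expression values (versions not given in the sources used here). They hold no counts and no detection calls, so that the number of arrays limits the precision. RMA sets all arrays to the same distribution, and a level is thus relative to the other probes of its array. The columns of the deposited table were matched to samples by their labels, with 0 columns left over.

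Of 24123 rows 188 control probe sets were left out. Gene symbols came from the platform annotation, where 10069 of the 23935 probes had 1 symbol, 198 several and 13668 none, and no member had several. Tissue contrasts were fitted over all 64 arrays with terms for tissue, breed and sex in limma 3.58.1 (R 4.3.3), breed and sex on the 4 animal means, both with Benjamini-Hochberg adjustment over all probes and an FDR of 0.05. The contrasts by breed were fitted over all 64 arrays with a mean for each tissue and breed and a term for sex. Plots used matplotlib 3.10.9 and tables pandas 2.3.3, and the fit was tested on simulated data. Replicates were separate animals, each of which gave all tissues. Deviations from the tissue means correlated within an animal (mean r 0.189, 385 of 480 pairs over 0.1) and not between animals (mean r -0.0629, 40 of 1440 pairs over 0.1), and the animal was a block in an alternative fit.

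A gene was read by its brightest probe, and other probes were given where they differed. Named in each comparison were up to 5 called members with the largest positive and 3 with the largest negative difference, the members extreme in a tissue, those with the smallest variation between tissues and, for breed and sex, called members or else the 2 with the smallest p. Alternatives were the block, probes above the median level, a further quantile normalization, the natural logarithm, a variance trend leaving out each animal and leaving out single arrays of pineal gland (Large White male) or biceps femoris (Iberian female). Left out in further alternatives, which were chosen after seeing the data, were single arrays of stomach, abdominal fat and neurohypophysis and all blood arrays. The limit of 4.5 for dim probes and the use of the 64 reporter probe sets were chosen after seeing the data too. So were the sets of tissues whose arrays were set against all other arrays for KCNIP2, KCNJ5, KCNN4 and KCNE3. Where sets or groups of several tissues, or 2 tissues, are said not to overlap, the share of all probes was not counted. The members and lists were chosen with earlier results of these data known. Sequences of the members were not used here.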

Additional observations from a re-analysis of the deposited data

Results flagged for a closer look

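Among 143 pairs of a member named by the rule and a tissue 18, and among 167 with the members added after their values were seen 22, had 1 array whose gap to the nearest of the other 3, relative to the range of the 4, exceeded Dixon's critical value, where chance gives about 1 in 20. In the pineal gland 4 of 8 pairs by the rule were so placed, and 7 with KCNIP4, CACNB3 and CACNB4, which were added because that array stood apart and are no further support. Each was set by the Large White male array, at 6.99 for KCNB2 (low), 7.66 for KCNIP1, 3.12 for KCNE3, 5.33 for KCNIP2, 9.29 for KCNIP4, 9.47 for CACNB3 and 8.12 for CACNB4 (all high). In stomach the Iberian female array was low, at 4.75 for KCNE1, 4.43 for KCNQ1 and 2.98 for the second KCNE2 probe. For KCNE3 the pineal gap is small in size, since the other 3 arrays read 3.01.

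The Large White male stood apart for CLCN2 in adenohypophysis (6.43, high), KCNIP1 in hypothalamus (6.09, low), KCNIP4 in liver (4.39, high) and KCNF1 in blood (4.88, low). The Large White female did for KCNIP2 in hypothalamus (7.86, high), KCNIP4 in olfactory bulb (7.92, low) and in adrenal cortex (6.30, high) and KCNN4 in ileum (6.19, high). The Iberian male did for KCNE3 in olfactory bulb (4.19, high) and TRPM7 in abdominal fat (7.76, high), and the Iberian female for KCNIP4 in neurohypophysis (3.71, low) and TRPV6 in biceps femoris (6.06, high). The contrast of the muscles in TRPM7 differed between the breeds by 0.81 by limma's test of that difference (adjusted p = 0.0449). That test took arrays as replicates although each breed was 2 animals, and the second TRPM7 probe gave 0.07. The difference fell to 0.31 without the Large White female and to 0.59 without the Iberian female biceps array, and the fits without the other animals are given above.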

How the results depend on the processing

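With the animal as a replicate block all 810 results on single members kept their call and direction, and members called for the muscle contrast by breed went from 1 to 2. Over probes above the median level 11 members remained to be tested, and all 11 differed between tissues. Called higher and lower among them were 7 and 3 in olfactory bulb and hypothalamus, 1 and 0 in olfactory bulb against hypothalamus, 4 and 3 in pineal gland, 6 and 2 in pituitary, 4 and 7 in muscles, 1 and 2 in diaphragm against biceps femoris, 3 and 3 in adrenal tissues, 3 and 4 in thyroid gland, 1 and 7 in fats, 3 and 2 in stomach, 2 and 2 in liver, 2 and 3 in ileum and 4 and 3 in blood, with 2 higher in adenohypophysis against neurohypophysis and 0 in adrenal medulla against cortex. These counts are smaller because fewer members were tested. For no alternative setting was the share of all probes counted, so that these counts cannot be set against the whole array. On the natural logarithm 10 members were higher in adenohypophysis. After a further quantile normalization 18 were lower in thyroid gland. Without the Iberian female biceps array 4 were lower in diaphragm than in biceps femoris and 0 were called by breed in the muscles. Without the blood arrays 11 were higher in liver, 9 were higher and 11 lower in pineal gland, and 18 and 8 in stomach. With 64 arrays as replicates 1 member was lower in Large White pigs. Members extreme in a tissue numbered 14 without the Large White male pineal array, and over all arrays 1 with a gap over 0.5. On the natural logarithm KCNB2 and KCNIP2 in olfactory bulb against hypothalamus and KCNJ5 in pineal gland lost their call. Without the Large White female abdominal fat array 797 of the 810 results on single members kept their call and without the Iberian male neurohypophysis array 806, and in neither did a called direction turn. The cause was not tested for these.

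Without that pineal array the pineal differences of KCNIP4, CACNB3 and CACNB4 turned to -1.12, -0.59 and -0.70, and without replicate 1, the same animal, to -1.13, -0.58 and -0.73. Over the 4 fits without 1 animal these differences ran from -1.13 to 0.60, from -0.58 to 0.75 and from -0.73 to 0.43. Leaving out each animal gave 3 to 6 members higher and 1 to 2 lower in olfactory bulb against hypothalamus, 0 to 2 lower in adenohypophysis against neurohypophysis, 1 to 2 higher and 3 to 13 lower in diaphragm against biceps femoris, 0 to 1 higher in adrenal medulla, 4 to 7 higher in liver and 0 to 6 called by breed in the muscles. Differences within dim probes are limited by the reporter level, under which 14 members lay in every tissue.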
